A study of Homo sapiens with 6 samples.

Results

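The 3 TPC1 libraries transfected with siControl were described on their own, as the basal transcriptome of this cell line. They were the 3 of the 6 samples of the series whose titles name si-Control, and the siSRPX2 libraries were not compared here. TPC1 is an established cell line from a human papillary thyroid carcinoma (PTC), and the study's methods describe it as RET/PTC rearranged. All 3 samples carried the labels TPC1, thyroid cancer cells, genotype WT and source thyroid, and the study's methods describe them as biological repeats. The labels also give a treatment with adipogenic differentiation, a time of Day 2 and DMEM as the medium, whereas the study's methods describe a siRNA transfection in RPMI-1640, another time and no such treatment. The levels of adipocyte genes are therefore given below. siControl is the control siRNA of the study, so the cells were transfected cells and not untouched ones. For each of 31348 gene IDs the deposited table holds a raw count and an FPKM, a level that divides the fragments of a gene by its transcript length and by the mapped fragments of the library. The siControl libraries held 63824315, 73439682 and 70042541 counts in replicates 1, 2 and 3. Levels of different genes are compared here in FPKM, which corrects for length. Libraries are compared in CPM, counts scaled to a common library total and by TMM (trimmed mean of M values). Every listed gene had at least 1 count over the 6 samples of the series, and other genes were not analysed here.

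Papillary carcinoma arises from the follicular cells of the thyroid, which make thyroglobulin, iodinate it and release thyroid hormone. Their identity rests on a few transcription factors, mainly PAX8, NKX2-1, FOXE1 and HHEX. A RET/PTC rearrangement joins the kinase part of RET, a receptor that follicular cells normally lack, to the start of another gene and signals through the MAPK cascade. Cell lines from such tumours commonly keep part of this programme and lose the genes of hormone synthesis.

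A mean of at least 1 FPKM was reached by 11625 of the 31348 listed genes (37.1%). Of these, 10387 (89.4%) were protein-coding in GENCODE release 29. Of the 16274 listed protein-coding genes, 63.8% reached that mean, the share to set beside the counts of list members below. Each library alone had 11513, 11455 and 11780 genes at or above 1 FPKM. All 3 libraries reached 1 FPKM for 10784 genes, and a further 1636 genes reached it in some but not in all of the libraries. Most of the rest lay just above 0: 16991 genes had a mean over 0 and under 1 FPKM, and together they held 1.12% of the summed FPKM. Between 1 and 10 FPKM there were 7856 genes, between 10 and 100 there were 3490, and between 100 and 1000 there were 257. At 1000 FPKM or more there were 22 genes, and these held 25.5% of the summed FPKM and 10.8% of the counts. The summed FPKM of a library was 253072, 246285 and 238015. TPM values sum to a much larger fixed total, so 1 FPKM here is a larger share of the transcripts than 1 TPM would be.

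The most abundant RNAs were mitochondrial. Of the 30 genes with the highest mean FPKM, 19 were encoded by the mitochondrial genome: all 13 mRNAs, both rRNAs and 4 tRNAs. MT-ATP8, a subunit of ATP synthase, was at 6489, 5690 and 5955 FPKM. MT-CO1, the catalytic subunit of cytochrome c oxidase, was at 6074, 5118 and 6454 FPKM. The 13 mRNAs made up 17.9%, 15.5% and 17.5% of the summed FPKM but 4.24%, 3.51% and 3.99% of the counts, since they are short. Replicate 2 had the lowest CPM for 12 of the 13, against 33.3% of all genes at 1 FPKM or more. Both mitochondrial rRNAs were lowest in the same library: MT-RNR2 was at 3163, 1781 and 3030 FPKM and MT-RNR1 at 732, 450 and 889 FPKM. MT-ATP8 overlaps MT-ATP6 and MT-ND4L overlaps MT-ND4, so reads in the shared stretch can be given to either gene. The 4 tRNAs in the list, MT-TC, MT-TN, MT-TY and MT-TA, had means of 1534, 1499, 1372 and 853 FPKM. All 22 mitochondrial tRNAs held 2.99% of the summed FPKM but only 0.0569% of the counts. A tRNA is shorter than a usual sequencing fragment, and dividing by so short a length makes its FPKM uncertain.

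The other 11 of the 30 were nuclear mRNAs, and they fell into a few roles. Iron storage was represented by both ferritin chains. FTL, the light chain, was at 5122, 2993 and 3842 FPKM, the highest mean of any nuclear gene. FTH1, the heavy chain, was at 1550, 1001 and 2000 FPKM. Replicate 2 was the lowest of the 3 for both. Among the genes of the actin cytoskeleton, TMSB10, which binds actin monomers, was at 4054, 3070 and 3101 FPKM. ACTG1 was at 1057, 812 and 906 FPKM and ACTB at 815, 789 and 697 FPKM. These are the non-muscle actins, and their levels varied by at most 1.35-fold in CPM. GAPDH and ENO1 act in glycolysis: GAPDH was at 2706, 2284 and 1687 FPKM, and ENO1 at 837, 851 and 511 FPKM. Both were lowest in replicate 3. EEF1A1, the factor that carries aminoacyl-tRNA to the ribosome, was at 1658, 1450 and 1681 FPKM, and RPL41, a ribosomal protein, at 693, 699 and 676 FPKM. AKR1B1, aldose reductase, which turns glucose into sorbitol, was at 1025, 300.1 and 786 FPKM, so replicate 2 stood well below the others.

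FN1, fibronectin, is the remaining nuclear gene of the 30. FN1 (chr2, minus strand) was at 2037, 1244 and 2886 FPKM, place 14 by mean FPKM, and took more counts than any other gene in each library. It alone held 3.96%, 2.37% and 5.65% of all counts. Fibronectin is a large secreted glycoprotein of the matrix, and its transcript is long, which sets its count apart from its FPKM. Ranked by mean CPM instead, FN1 was followed by MT-CO1, EEF1A1, GAPDH and MT-ND4. That ranking also brought in long mRNAs that lay lower by FPKM. AHNAK, a giant scaffold protein, moved from place 123 by FPKM to place 10 by CPM, and FLNA, filamin A, from 90 to 15. C3, complement component 3, moved from 73 to 17; it was at 372, 94.1 and 466 FPKM, again lowest in replicate 2.

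**Figure D1:**
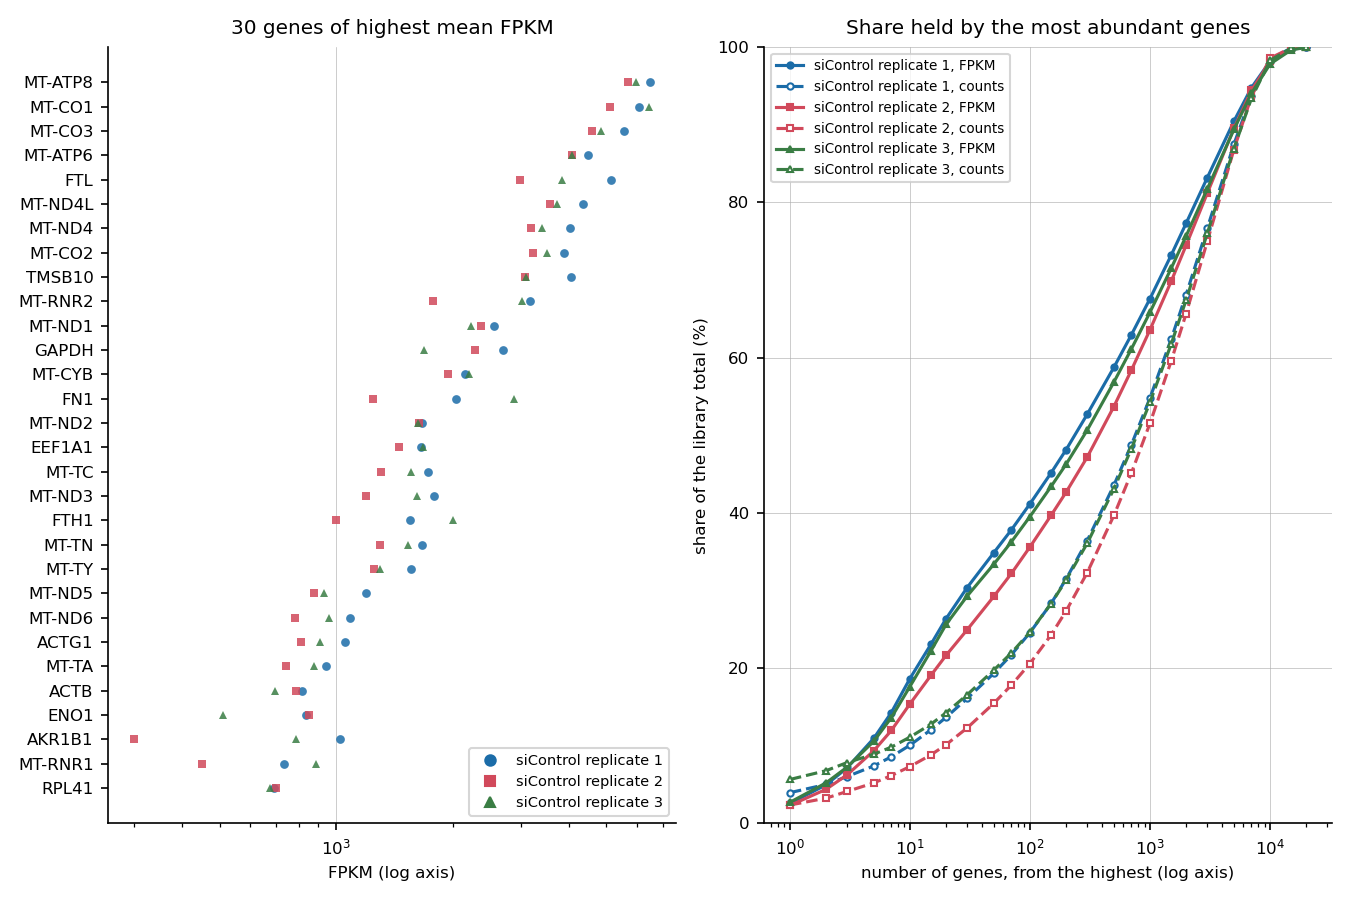
Left, FPKM on a log axis of the 30 genes of highest mean FPKM, a point for each siControl library. Right, the share of a library's total held by its most abundant genes against their number (log axis), in FPKM (solid lines) and in counts (dashed lines). The libraries lie close together for RPL41 (693, 699 and 676 FPKM) and far apart for AKR1B1 (1025, 300.1 and 786 FPKM), and the lines of replicate 2 are the lowest from 10 to 1000 genes.

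The 10 genes of highest mean FPKM held 18.7%, 15.2% and 17.6% of the summed FPKM (17.1% ± 1.8, SD, n = 3). The 100 highest held 41.0%, 35.3% and 39.4%. In replicate 2 the total was spread over more genes: 50% of its summed FPKM took 378 genes, against 238 in replicate 1 and 284 in replicate 3. For counts, 50% took 755, 921 and 780 genes.

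Cytosolic ribosomal proteins formed the most even large group. All 79 measured members were at 10 FPKM or more and 54 were at 100 or more. Together they held 6.53%, 6.56% and 6.39% of the summed FPKM (6.49% ± 0.0927, SD, n = 3). The most abundant were RPL41, RPS12 (728, 705 and 633 FPKM), RPL13A (693, 642 and 650 FPKM) and RPS2 (658, 692 and 616 FPKM). RPS29 was the lowest, with a mean of 10.2 FPKM. RPS26 was the only member that differed over 2-fold among the libraries in CPM (56.6, 81.7 and 33.9 FPKM), against 16.9% of all genes at 1 FPKM or more. These genes have many near-identical pseudogenes, which can take some of their reads: RPS28P7, a processed pseudogene, was listed at a mean of 381 FPKM, whereas RPS28 itself was at 38.6. Levels of single ribosomal proteins are uncertain for this reason.

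The 10 most abundant genes that are not protein-coding were MT-RNR2, MT-TC, MT-TN, MT-TY, MT-TA, MT-RNR1, MT-TS1 and 3 nuclear pseudogenes. MTATP6P1, a copy of mitochondrial DNA on chromosome 1, was at 580, 504 and 525 FPKM. AC243919, on chromosome 15, was at 512, 488 and 435 FPKM, and EEF1A1P5, on chromosome 9, at 414, 344 and 441 FPKM. Reads of these genes cannot be told apart with certainty from those of their parent genes. Processed pseudogenes made up 3326 of the listed genes and held 2.65% of the summed FPKM, with 368 of them at 1 FPKM or more. Of 2664 listed lincRNAs, 161 reached 1 FPKM. Of 16 measured nuclear or unpolyadenylated RNAs 9 reached 1 FPKM and none reached 100: MALAT1, a nuclear long noncoding RNA, was at 23.6, 9.27 and 23.2 FPKM, and NEAT1, the scaffold of paraspeckles, at 12.3, 9.06 and 17.2 FPKM. RN7SK, a small nuclear RNA that binds the elongation factor P-TEFb, had a mean under 1 FPKM.

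Many mRNAs of ribosomal proteins and translation factors begin with a C followed by a run of pyrimidines, the terminal oligopyrimidine (TOP) motif, through which their translation is regulated. The annotated start regions of the abundant mRNAs were therefore read from RefSeq promoters on GRCh38.p14, 40 bases before the start and 15 bases from it on. Of 16021 protein-coding genes with a unique name, 9006 matched a RefSeq gene with a single listed start. A run was searched on the strand of the gene as a C followed by at least 5 pyrimidines, beginning between 5 bases before and 10 bases after the start. TATAAA was searched on the same strand between 40 and 20 bases before it. Capitals below mark these matches, and the start is base 41 of each sequence. EEF1A1, RPS12, RPL13A, RPL41, EEF2 and RPL7A are shown because they are abundant and hold a run. FTL, TMSB10, GAPDH and FN1 are shown because they are more abundant still, or nearly so, and hold none within the searched bases. In FTL and TMSB10 a C followed by at least 5 pyrimidines begins just before those bases. Base 41 of GAPDH lies well inside the gene as the deposited table places it (chr12, from 6534512). That of EEF1A1 does too (chr6, minus strand, from 73521900). Whether these windows hold the start in use was not tested.
EEF1A1 (chr6:73521018-73521072, minus strand): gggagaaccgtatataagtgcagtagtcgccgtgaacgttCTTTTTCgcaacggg
RPS12 (chr6:132814529-132814583, plus strand): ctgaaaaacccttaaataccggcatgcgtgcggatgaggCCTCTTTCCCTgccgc
RPL13A (chr19:49487568-49487622, plus strand): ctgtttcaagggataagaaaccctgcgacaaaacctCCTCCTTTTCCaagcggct
RPL41 (chr12:56116593-56116647, plus strand): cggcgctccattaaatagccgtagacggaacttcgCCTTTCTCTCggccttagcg
EEF2 (chr19:3985449-3985503, minus strand): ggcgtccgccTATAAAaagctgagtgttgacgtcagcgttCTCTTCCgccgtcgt
RPL7A (chr9:133348178-133348232, plus strand): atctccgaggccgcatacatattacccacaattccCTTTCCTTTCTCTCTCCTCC
FTL (chr19:48965269-48965323, plus strand): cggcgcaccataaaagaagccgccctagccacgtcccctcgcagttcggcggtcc
TMSB10 (chr2:84905616-84905670, plus strand): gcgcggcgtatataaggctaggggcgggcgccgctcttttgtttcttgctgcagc
GAPDH (chr12:6535224-6535278, plus strand): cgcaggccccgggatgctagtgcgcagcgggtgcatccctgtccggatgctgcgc
FN1 (chr2:215436054-215436108, minus strand): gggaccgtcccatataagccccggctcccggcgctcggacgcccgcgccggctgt

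The run was found in 14.8% of all 35116 promoters of the RefSeq table. Among the matched genes its share was 12.4% of 298 genes at 0 FPKM, 13.6% of 2726 genes under 1 FPKM, 13.1% of 3867 genes from 1 to 10 FPKM and 17.1% of 1981 genes from 10 to 100 FPKM. At 100 FPKM or more it was 38.1% of 134 genes. Of the 100 most abundant matched genes 41 held it, and 26 of these were ribosomal proteins. Of 53 matched ribosomal protein genes, 47 held it (88.7%), against 20 of the 99 other genes at 100 FPKM or more (20.2%). TATAAA was found in 2.30% of all promoters. It was most frequent at both ends of the scale, in 7.72% of the genes at 0 FPKM and in 7.46% of those at 100 or more, and least frequent from 1 to 10 FPKM (1.09%). The median observed over expected CpG of the 300-base window was 0.397 for genes at 0 FPKM, 0.622 under 1 FPKM, 0.864 from 1 to 10 FPKM and 0.885 at 100 FPKM or more. These matches are descriptions of annotated starts, since starts were not measured in these cells.

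**Figure D2:**
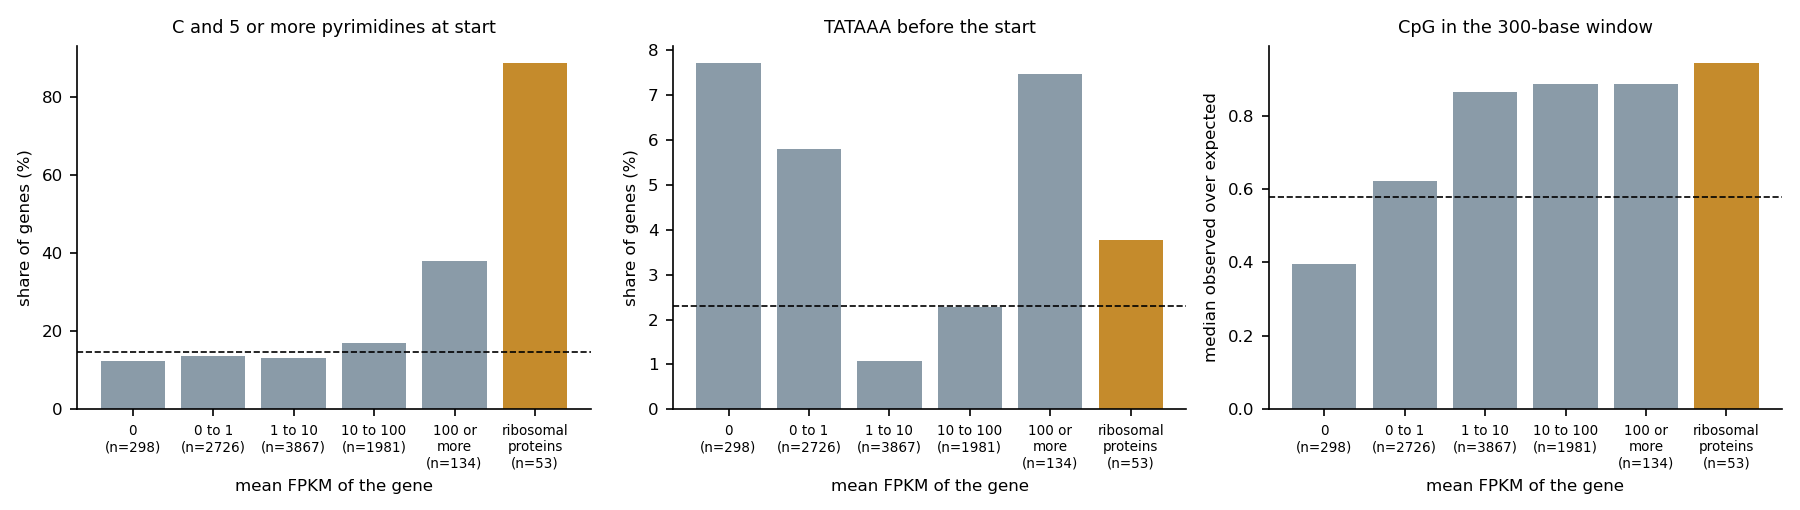
Promoter features of 9006 protein-coding genes by mean FPKM, with matched ribosomal protein genes in the last bar. Bars give the share of genes with a pyrimidine run at the start (left) or TATAAA (middle) in percent and the median CpG observed over expected (right), and the dashed line gives the value over all 35116 RefSeq promoters. The run is near 14.8% in all bands under 10 FPKM and reaches 38.1% at 100 FPKM or more and 88.7% for ribosomal proteins.

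Of the thyroid transcription factors measured, PAX8 was the most abundant, and FOXE1 also had a mean above 10 FPKM. PAX8 (chr2:113215997-113278921, minus strand) was at 96.6, 79.8 and 103 FPKM, place 316 of all genes. FOXE1 (chr9:97853226-97856717, plus strand) was at 11.6, 10.0 and 12.4 FPKM, and the PAX8 level was 8.19 ± 0.208 times as high (SD, n = 3). GLIS3, a factor needed for thyroid hormone production, was at 8.55, 4.84 and 7.62 FPKM, and HHEX at 1.42, 1.82 and 1.12 FPKM. NKX2-1 was not analysed here. The ranges of PAX8, FOXE1, GLIS3 and HHEX over the 3 libraries did not overlap, so the order of these levels held in every library.

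The genes of hormone synthesis were close to silent. Of 16 genes on that list 10 were measured, and 2 of them reached 1 FPKM. CDH16, a cadherin of thyroid and kidney epithelium, was at 6.24, 0.928 and 2.91 FPKM. TG, thyroglobulin, was at 0.147, 0.112 and 0.151 FPKM from 120, 103 and 136 counts, and the PAX8 level was 682 ± 27.3 times as high (SD, n = 3). DUOX2, an oxidase that makes the hydrogen peroxide for iodination, was at 0 in replicates 1 and 2 and at 0.00783 FPKM in replicate 3, and DUOXA1, the maturation factor of DUOX1, had 0 counts in all 3. TSHR, SLC5A5, DUOXA2, IYD and SLC5A8 were not analysed here.

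Epithelial genes divided into a few high and many near 0. Of 19 measured members 8 were at 1 FPKM or more and 5 at 10 or more. CLDN1, a claudin of tight junctions, was at 145, 61.2 and 173 FPKM. KRT18 was at 56.2, 91.4 and 49.2 FPKM and KRT8, its partner in simple epithelia, at 48.5, 67.3 and 39.9 FPKM, so these keratins were highest in replicate 2 and CLDN1 lowest there. The ratio of KRT8 to KRT18 was 0.864, 0.736 and 0.811. KRT19, a further simple keratin, was at 0.124, 0.106 and 0.134 FPKM. CDH1, E-cadherin, had 14, 14 and 0 counts (0.0283, 0.0248 and 0 FPKM). EPCAM was at 0.144, 0.0867 and 0.0231 FPKM, and CLDN3, CLDN4, CLDN7, DSP and ESRP2 were all under 0.2 FPKM. OVOL1 had 0 counts, and ESRP1, GRHL2 and OVOL2 were not analysed here.

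Genes commonly used as mesenchymal markers were expressed more often, but many of them at a low level. Of 16 members 14 reached 1 FPKM and 6 reached 10. The list median was 3.54 FPKM, against 0.121 FPKM for the epithelial genes. FN1, VIM, SPARC and LOXL2 were above 100 FPKM by mean. SNAI1, S100A4, TWIST2, TGFBI and ZEB2 had means of 2.59, 2.17, 1.51, 1.17 and 0.70 FPKM. VIM, vimentin, the intermediate filament of mesenchymal cells, was at 405, 371 and 350 FPKM. SPARC, a matricellular protein, was at 153, 81.4 and 151 FPKM, and LOXL2, which cross-links collagen, at 148, 103 and 124 FPKM. Of the regulators of epithelial-mesenchymal transition (EMT), ZEB1 was at 7.24, 8.06 and 6.51 FPKM. SNAI2 was at 2.88, 1.98 and 5.00 FPKM and TWIST1 at 1.07, 0.883 and 1.09 FPKM. CDH2, N-cadherin, was at 4.06, 4.0 and 3.32 FPKM, far above CDH1 in each library. CDH11, a cadherin of fibroblasts and bone cells, had 0 FPKM in replicate 1 and at most 0.0313 FPKM in the others. In bulk RNA of this kind, fewer cells expressing a gene and less RNA per cell cannot be told apart.

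Most measured markers of other cell types had means under 1 FPKM in these libraries, with exceptions on several lists. The 5 measured endothelial markers summed to 0.235, 0.165 and 0.195 FPKM. PTPRC, which marks leukocytes, was at 0 in replicates 1 and 3 and at 0.00493 FPKM in replicate 2. CD68, a lysosomal protein, was the highest of the leukocyte list at 8.48, 4.66 and 7.40 FPKM, and CD14 was at 2.05, 0.327 and 1.31 FPKM. COL3A1 had 0 counts and PDGFRA reached at most 0.00894 FPKM, whereas LUM, a proteoglycan on the fibroblast list, was at 7.60, 2.50 and 4.16 FPKM. ACTA2, also on the fibroblast list, was at 2.47, 0.863 and 2.79 FPKM. Among adipocyte genes, PLIN1 was at 0.0819, 0.0708 and 0.0620 FPKM, and PLIN4, LPL and GPD1 were below 0.1 FPKM in every library. DGAT2 was at 0.203, 0.109 and 0.670 FPKM and CEBPA at 0.215, 0.255 and 0.418 FPKM. PPARG, the adipogenic nuclear receptor, was at 3.27, 2.16 and 3.24 FPKM and was the only one of the 7 measured adipocyte genes at 1 FPKM or more. ADIPOQ, FABP4, LEP, CIDEC and CIDEA were not analysed here. On the hepatocyte list, SERPINA1, a protease inhibitor secreted by liver and some tumours, was at 30.7, 12.7 and 17.5 FPKM. ALB, albumin, was at 3.45, 2.19 and 3.30 FPKM, and the other members had means under 1 FPKM. CALCA, the calcitonin gene of thyroid C cells, had 408, 366 and 0 counts, so it was seen in replicates 1 and 2 and not in replicate 3. CEACAM5, a carcinoembryonic antigen on the list of C cell markers, was also at 0 in replicate 3 and low in the others.

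**Figure D3:**
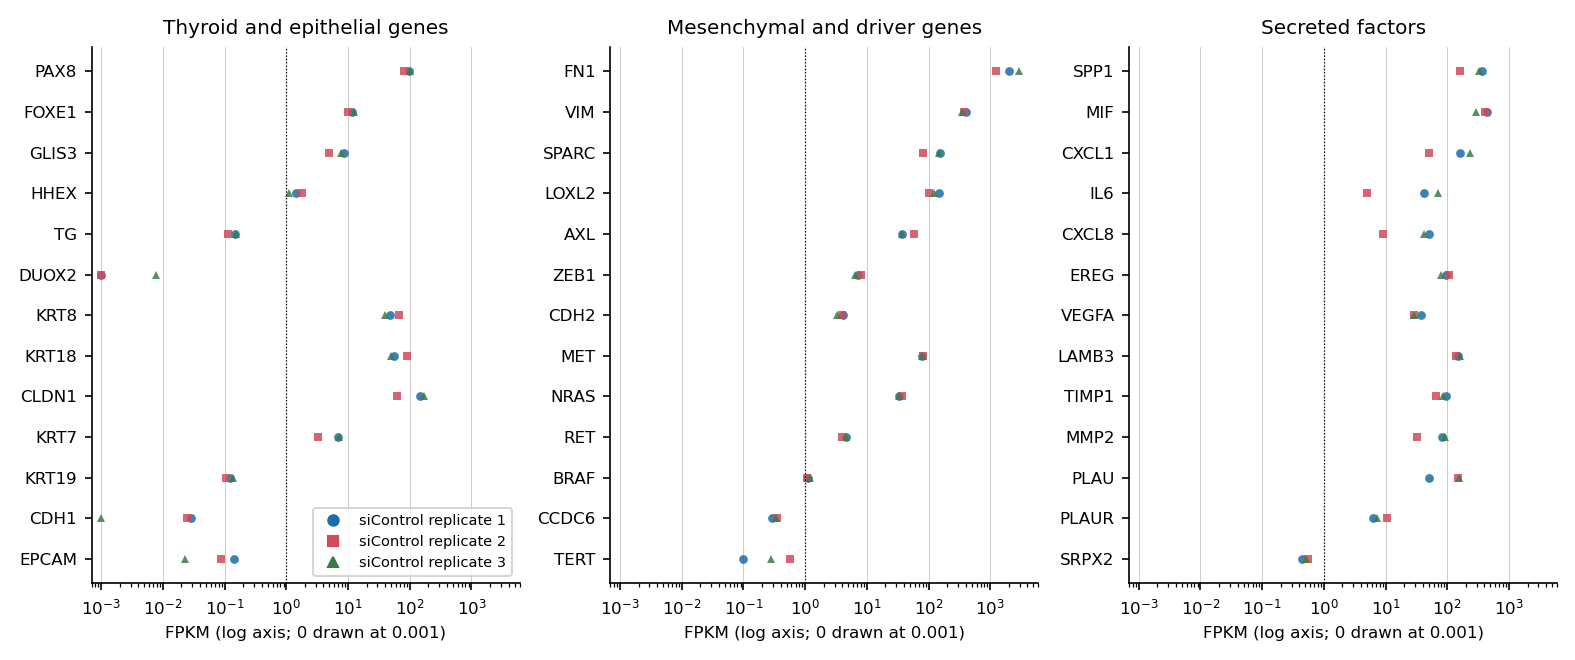
FPKM on log axes of selected thyroid and epithelial genes, mesenchymal and driver genes, and secreted factors, a point for each siControl library; the dotted line marks 1 FPKM and values of 0 are drawn at 0.001. PAX8 lies at 96.6, 79.8 and 103 FPKM while TG lies below 1, and VIM at 405, 371 and 350 FPKM while CDH1 lies at or below 0.0283.

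RET was expressed at a modest level. RET (chr10:43077064-43130351, plus strand) was at 4.65, 3.96 and 4.68 FPKM (4.43 ± 0.410, SD, n = 3) from 2300, 2209 and 2568 counts. CCDC6 (chr10:59788747-59906556, minus strand), the gene joined to RET in the RET/PTC1 rearrangement, was at 0.286, 0.355 and 0.338 FPKM, so RET was 16.2, 11.2 and 13.9 times as high. NCOA4, the partner gene in RET/PTC3, was at 69.3, 54.4 and 62.9 FPKM. Counts were given per gene, so reads of a rearranged and of an intact copy of RET cannot be told apart in this table.

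Of the 29 thyroid cancer drivers and tumour suppressors on the list, all were measured, 24 reached 1 FPKM and 11 reached 10 FPKM. MET, the receptor of hepatocyte growth factor, was the highest and nearly constant, at 78.8, 81.8 and 77.3 FPKM. NRAS was at 32.9, 37.4 and 32.8 FPKM and HRAS at 8.75, 15.9 and 8.58 FPKM, so both of these RAS genes were highest in replicate 2. BRAF was low, at 1.12, 1.09 and 1.19 FPKM. TERT, the catalytic subunit of telomerase, was at 0.0996, 0.572 and 0.276 FPKM from 44, 278 and 131 counts. ALK had 0 counts.

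CDKN2A (chr9:21967753-21994873, minus strand), whose products include the cell cycle inhibitor p16, was at 48.0, 45.9 and 54.7 FPKM. These are levels of the whole gene, so its transcripts cannot be told apart here. CDKN2B, its neighbour, which encodes p15, was at 5.06, 1.37 and 9.77 FPKM, and MTAP, an enzyme of methionine salvage in the same region, at 3.63, 5.69 and 3.88 FPKM. Of the 18 measured genes of 9p21 and the bands beside it, 12 were at 1 FPKM or more. This share is near the 63.8% of listed protein-coding genes. IFNB1 and ELAVL2 had 0 counts. PLIN2, a lipid droplet protein nearer the telomere, was at 166, 26.7 and 38.4 FPKM, so here replicate 1 was the library apart.

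Adaptors and kinases between RET and ERK were expressed throughout. Of 18 such genes 17 reached 1 FPKM, led by SHC1, an adaptor of activated receptors, at 118, 92.6 and 98.4 FPKM. MAPK3, which encodes the kinase ERK1, was at 11.996, 6.68 and 10.6 FPKM. Of 22 genes that MAPK signalling is known to induce, 21 reached 1 FPKM and 12 reached 10. IER3, an early response gene, was at 157, 98.3 and 131 FPKM, and CCND1, cyclin D1, at 80.6, 107 and 77.7 FPKM. FOSL1, the AP-1 subunit FRA1, was at 37.8, 139.8 and 79.9 FPKM and thus differed most between replicates 1 and 2. Among the negative regulators, DUSP6 was at 11.3, 9.12 and 11.3 FPKM and DUSP5 at 34.6, 33.9 and 15.9 FPKM, whereas DUSP4 did not reach 0.1 FPKM in any library.

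Of 38 measured receptor tyrosine kinases 17 reached 1 FPKM, and none of the 17 differed over 2-fold among the libraries, against 16.9% of all genes at 1 FPKM or more. After MET came AXL (37.3, 58.8 and 37.8 FPKM), EPHA2 (36.6, 45.0 and 34.8 FPKM) and EGFR (22.4, 18.1 and 17.3 FPKM). ERBB2 was at 5.97, 4.80 and 5.74 FPKM, and ERBB3 and ERBB4 were under 0.4 FPKM. By mean FPKM, EPHB4 (4.64, 4.58 and 4.70 FPKM) stood just above RET in this family, and their ranges overlapped. Of the 20 core genes of PI3K and AKT signalling 18 reached 1 FPKM, none over 2-fold apart: AKT1 was at 14.4, 18.7 and 13.8 FPKM and PIK3CA at 2.26, 2.42 and 2.45 FPKM. INPP5D, a phosphatase of blood cells, reached at most 0.0417 FPKM.

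Markers used for papillary carcinoma in tissue were mixed. Besides FN1 and MET, SDC4, a syndecan, was at 114, 72.3 and 132 FPKM, TIMP1 at 94.9, 64.9 and 85.9 FPKM and DPP4, a cell surface peptidase, at 43.5, 19.2 and 35.0 FPKM. LGALS3, galectin-3, was only at 4.35, 2.52 and 4.37 FPKM, and KRT19, as above, was near 0. CITED1 was at 0 in replicates 1 and 3, and CHI3L1 and TENM1 had 0 counts in all 3. Of the 9 markers at 1 FPKM or more, 8 were lowest in replicate 2, against 33.3% of all genes at that level.

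SRPX2 (chrX:100644195-100675788, plus strand), the secreted sushi-repeat protein whose knockdown the study examined, was itself low in siControl cells. It was at 0.448, 0.545 and 0.511 FPKM from 243, 335 and 308 counts, place 13306 of the listed genes. Its known receptor PLAUR, the urokinase receptor, was at 6.32, 10.4 and 7.23 FPKM. PLAU, urokinase, was at 50.7, 151 and 156 FPKM, so replicate 1 lay apart, and PLAU was 113, 277 and 305 times as high as SRPX2. SRPX, the paralog of SRPX2, was at 1.54, 1.497 and 3.81 FPKM. The 6 genes that the study followed up, a choice made on samples of this series, were all at or near 0: PREX2, LAMA4, GREM1 and S100A14 had 0 counts in each library, PTGDS had 10 counts in replicate 3 only and GLS2 had 1 count in replicate 2 only. A count of 0 allows up to 0.0470, 0.0408 and 0.0428 CPM, the level of 3 counts, in replicates 1, 2 and 3. This limit covers counting error only. The paper reports that the genes it followed up fell after SRPX2 knockdown, by sequencing and by RT-qPCR in TPC1 and IHH4 cells. For PREX2, LAMA4, GREM1 and S100A14 a fall could not be seen in counts that start from 0. The siSRPX2 libraries were not compared here, so the reported fall was not tested.

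By mean FPKM, secreted signals were led by MIF, macrophage migration inhibitory factor, at 436, 413 and 291 FPKM. SPP1, osteopontin, was at 365, 158 and 324 FPKM. CXCL1, a neutrophil chemokine, was at 159, 50.3 and 231 FPKM. CXCL8, interleukin-8, was at 51.1, 9.02 and 42.4 FPKM, and IL6, interleukin-6, at 41.5, 4.94 and 69.9 FPKM. Replicate 2 was the lowest library for each of the last 4, and the ratio of highest to lowest CPM was 14.3 for IL6. Of 27 measured chemokines and cytokines 13 reached 1 FPKM, and 10 of the 13 differed over 2-fold, against 16.9% of all genes at 1 FPKM or more.

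Among growth factors, 19 of 30 measured members reached 1 FPKM, a share near the 63.8% of listed protein-coding genes. EREG, epiregulin, a ligand of EGFR, was at 96.4, 109 and 78.6 FPKM, whereas the related AREG was at 2.32, 2.47 and 1.20 FPKM and EGF itself stayed under 1 FPKM. TGFA, a further EGFR ligand, was at 17.2, 21.4 and 9.20 FPKM. VEGFA was at 36.9, 28.9 and 28.6 FPKM and FGF2 at 33.1, 24.0 and 32.6 FPKM. ANGPTL4, a secreted inhibitor of lipoprotein lipase that hypoxia is known to induce, was at 139, 111 and 28.98 FPKM, with replicate 3 apart. GDNF and ARTN, ligands of the RET co-receptors, were under 0.5 FPKM in every library.

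The matrix list reached 1 FPKM for 25 of 32 measured genes. After FN1, LGALS1, galectin-1, was at 655, 563 and 452 FPKM. IGFBP7, an insulin-like growth factor binding protein, was at 98.7, 48.9 and 221 FPKM. Of the basement membrane genes, LAMB3, a chain of laminin-332, was at 150, 138 and 163 FPKM, and LAMC1 at 133, 111 and 109 FPKM. COL4A1 and COL4A2, the collagen IV chains, were at 40.8, 26.7 and 34.6 FPKM and at 37.7, 32.6 and 36.2 FPKM. COL1A1, the main collagen of fibroblasts, stayed under 1 FPKM in every library, and LAMA4 had 0 counts. MMP14, a membrane-bound collagenase, was at 83.0, 98.3 and 129 FPKM, and MMP2, gelatinase A, which it activates, at 83.6, 32.9 and 91.6 FPKM. MMP1 was at 8.09, 14.4 and 1.98 FPKM, and MMP3, MMP7, MMP9 and MMP10 did not reach 0.2 FPKM. The inhibitors TIMP1 and TIMP2 were abundant (TIMP2 at 107, 81.2 and 151 FPKM), and TIMP3 reached at most 0.0154 FPKM.

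Integrins are the receptors of these matrix proteins. Of 25 measured integrins 11 reached 1 FPKM, with a median CV of 21.6% against 18.1% for all genes at 1 FPKM or more. ITGB1, the common beta chain, was at 350, 333 and 318 FPKM, and ITGA3, its partner for laminin-332, at 173, 190 and 164 FPKM. Their ratio was 1.91 ± 0.138 (SD, n = 3). ITGB3 was at 48.1, 51.7 and 83.1 FPKM and ITGA5, part of the main fibronectin receptor, at 53.5, 37.3 and 40.5 FPKM. Of 12 S100 proteins, S100A11 was the highest at 468, 367 and 509 FPKM. S100A4, often used as a fibroblast marker, was at 3.36, 1.71 and 1.43 FPKM.

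No count fell on 2731 of the listed genes in any siControl library, 588 of them protein-coding. Under 10 counts in all 3 together were found for 9175 genes, 1638 of them protein-coding. Whole families were close to silent. None of the 27 listed HOX genes reached 1 FPKM; the highest was HOXA5 at 0.400, 0.499 and 0.423 FPKM, followed by HOXA6 and HOXA3. Of 56 listed olfactory receptors 1 reached 1 FPKM, OR2A7, and 17 had 0 counts. None of 15 taste receptors reached it. Of 52 clustered protocadherins 2 did, PCDHGC3 (11.4, 9.31 and 11.4 FPKM) and PCDHGA10. Of 19 cancer-testis antigens only MAGEA3 (3.78, 5.36 and 1.07 FPKM) did, and it shares much sequence with MAGEA6. Keratins were expressed in part, with 8 of 22 at 1 FPKM or more. Of 57 replication-dependent histones 8 reached 1 FPKM; their mRNAs lack a poly(A) tail, and all 8 were highest in replicate 3, against 26.4% of all genes at 1 FPKM or more. H2BC12, for example, was at 4.63, 6.34 and 16.7 FPKM. Near-identical histone copies such as H2AC18 and H2AC19 share reads and are uncertain.

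The 3 libraries agreed closely in the order of levels but not to the limit of counting. Across all 31348 genes the Pearson correlation of log2(FPKM + 1) was 0.979 for replicates 1 and 2, 0.988 for 1 and 3 and 0.978 for 2 and 3, and Spearman's rho was between 0.906 and 0.908; genes are not independent, so these values are descriptions. Over the 11625 genes at 1 FPKM or more the median coefficient of variation (CV) of CPM was 18.1%, whereas counting alone gave a median of 2.05%. By band the median CV fell from 18.9% between 1 and 10 FPKM to 16.8% between 10 and 100 and 14.7% between 100 and 1000. A CV under 10% was found for 2562 genes (22.0%). For 1961 genes (16.9%) the highest and lowest library differed over 2-fold, and for 158 over 5-fold.

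Replicate 2 stood apart from the other libraries. It was the library apart for 1320 of the 1961 genes (67.3%), being the high library for 680 and the low library for 640. Replicate 1 was apart for 289 genes and replicate 3 for 352. Without replicate 2 the number of genes over 2-fold apart was 436. The labels and the headers of the table name no batch, date or passage, and the part of any such factor was not tested. Its total count was the highest of the 3.

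Proliferation genes had the largest median difference of replicate 2 from the other libraries among the lists with at least 10 genes at 1 FPKM or more. All 20 measured members reached 1 FPKM, all 20 were highest in replicate 2, and 17 differed over 2-fold. Over all genes at 1 FPKM or more, 45.0% were highest in that library and 16.9% differed over 2-fold. The median of the list in replicate 2 minus the mean of the others was 1.51 on the log2 scale of CPM + 0.1, against 0.07 for all genes. MKI67, the Ki-67 antigen of cycling cells, was at 19.7, 69.9 and 22.9 FPKM. RRM2, a subunit of ribonucleotide reductase, was at 8.08, 47.5 and 9.88 FPKM and PCNA, the clamp of DNA polymerase, at 49.7, 165 and 64.6 FPKM. CDKN1A, the cell cycle inhibitor p21, on the same list, was nearly level at 46.9, 50.9 and 49.7 FPKM. TUBA1B and TUBB, the main tubulins, were also high there (312, 684 and 248 FPKM, and 451, 820.0 and 360 FPKM).

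Matrix and inflammatory genes were low in the same library. Of the 25 matrix genes at 1 FPKM or more, 19 were lowest in replicate 2 and 13 differed over 2-fold, with a list median of -0.79 in the same log2 difference. For chemokines and cytokines the median was -1.16 and 11 of 13 were lowest there. For NF-kappaB genes it was -0.64 and 11 of 16 were lowest there, and SOD2, the mitochondrial superoxide dismutase, was at 89.3, 20.1 and 93.9 FPKM. Of all genes at 1 FPKM or more, 33.3% were lowest in replicate 2 and 16.9% differed over 2-fold. The subunits of NF-kappaB itself were uneven. RELA was at 12.5, 12.1 and 12.6 FPKM and NFKB1 at 10.0, 11.7 and 11.9 FPKM, whereas RELB was at 8.54, 5.95 and 11.7 FPKM and NFKB2 differed 1.59-fold in CPM, both lowest in replicate 2. Among lysosomal and iron storage genes 9 of 11 were lowest in replicate 2, such as CTSB, cathepsin B, at 136, 54.7 and 117 FPKM.

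**Figure D4:**
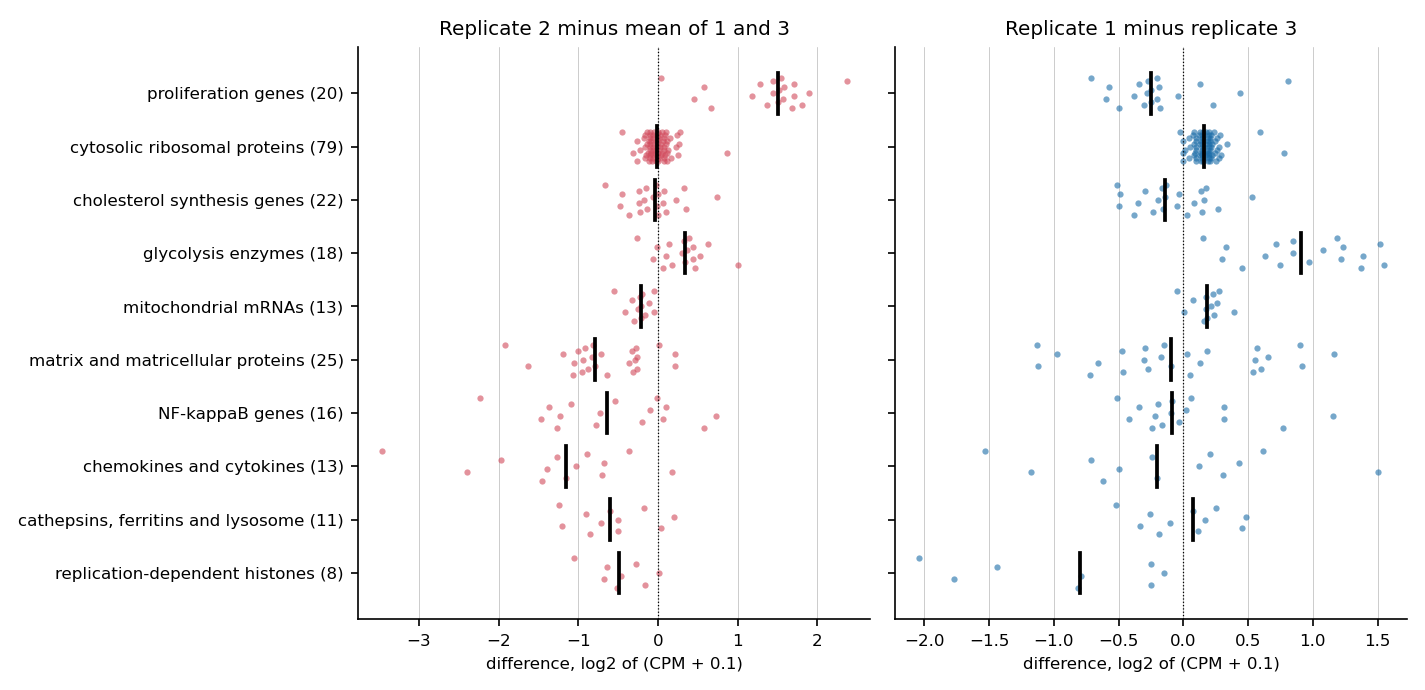
Difference between libraries in log2 of CPM + 0.1 for the members of 10 gene lists at 1 FPKM or more (a point for each gene, number of genes in brackets, black bar at the median). Left, replicate 2 minus the mean of replicates 1 and 3, with the median of proliferation genes at 1.51 and that of chemokines and cytokines at -1.16; right, replicate 1 minus replicate 3, with the median of glycolysis enzymes at 0.91.

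Between replicates 1 and 3, glycolysis had the largest median difference among the lists with at least 10 genes at 1 FPKM or more. All 18 glycolytic genes at 1 FPKM or more were higher in replicate 1 than in replicate 3, with a median difference of 0.91 on the same log2 scale, and 17 of the 18 were lowest in replicate 3, against 36.3% of all genes at 1 FPKM or more. Over all genes 52.9% were higher in replicate 1 than in replicate 3, with a median of 0.02. LDHA, lactate dehydrogenase A, was at 925, 691 and 407 FPKM, PGK1 at 190.2, 145 and 66.7 FPKM and SLC2A1, the glucose transporter GLUT1, at 28.8, 30.6 and 12.96 FPKM. PKM, pyruvate kinase, was an exception in size, at 297, 291 and 274 FPKM. Of 21 immediate early and stress genes at 1 FPKM or more, 7 were higher in replicate 1 than in replicate 3, against 52.9% of all genes. Their median difference was -0.21 on the same log2 scale. ASNS, asparagine synthetase, was at 2.34, 4.51 and 9.09 FPKM and CHAC1, which degrades glutathione, at 0.652, 1.07 and 7.69 FPKM. TRIB3, a pseudokinase, differed less, at 9.59, 12.03 and 11.4 FPKM. DDIT4, an inhibitor of mTORC1, was highest in replicate 1 (318, 133 and 111 FPKM). Cholesterol synthesis genes had no member over 2-fold apart among 22, against 16.9% of all genes at 1 FPKM or more.

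GAPDH and PGK1, which are also common reference genes, differed 1.64-fold and 2.92-fold among these libraries in CPM. Of 17 reference genes 4 differed over 2-fold, PGK1, GPI, PSMB2 and HPRT1, a share near the 16.9% of all genes at 1 FPKM or more. RAB7A, a GTPase of late endosomes, had the smallest CV of all genes with a mean of at least 10 FPKM (28.7, 30.04 and 29.5 FPKM, CV 0.300%). Next came TGFBRAP1, TMEM54, ACTR10, DYNC1I2, YAP1, IGF2BP2, TTC37, CNPPD1 and SNX9, all with a CV under 1%. YAP1, the co-activator of the Hippo pathway, was the most abundant of these at 49.5, 51.4 and 50.2 FPKM. These CVs lie under the median of 1.23% that counting alone gave between 10 and 100 FPKM. The 10 genes were picked as the smallest CVs of many, and neither their order nor their constancy was tested.

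At the other extreme, 12 genes with a mean of at least 5 FPKM and at least 10 counts in every library had the largest ratio of highest to lowest CPM. SAA1 and SAA2, acute-phase serum amyloid A proteins, were lowest in replicate 2: SAA1 was at 225, 11.8 and 105 FPKM (19.7-fold in CPM) and SAA2 at 18.7, 0.918 and 9.10 FPKM. These genes are near-identical copies and can share reads. IL6, as above, GBP2, an interferon-induced GTPase (11.4, 1.20 and 8.54 FPKM), ASS1, argininosuccinate synthase (9.23, 1.29 and 13.1 FPKM), and PIK3IP1, an inhibitor of PI3K (8.46, 0.806 and 6.33 FPKM), were also lowest in replicate 2. NUPR1, a stress-induced nuclear protein, was at 3.04, 0.729 and 15.1 FPKM, and KRT81, a hair keratin, at 8.97, 4.81 and 76.8 FPKM, so both were highest in replicate 3 and lowest in replicate 2. HILPDA, a lipid droplet protein that hypoxia is known to induce, was at 27.8, 6.75 and 2.87 FPKM, highest in replicate 1 as PLIN2 was.

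The remaining 3 of the 12, RPL36A-HNRNPH2, PMF1-BGLAP and TOMM6, lie on or beside other genes. RPL36A-HNRNPH2, a read-through model over RPL36A and HNRNPH2 on chromosome X, had 1220, 1807 and 19 counts (92.1-fold in CPM), while RPL36A had 11369, 11952 and 12938 counts. PMF1-BGLAP had 54, 804 and 448 counts, while PMF1 had 2204, 2966 and 2712 counts. Counts of such overlapping models are uncertain. TOMM6 had 1015, 2735 and 186 counts. Where any count was allowed, AC023509 (chr12:53441741-53467528) had 0, 1949 and 3091 counts and MIR3142HG, the host gene of a microRNA on chromosome 5, had 2307, 0 and 3525 counts; they are listed at 0 in a library, without a fold.

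**Figure D5:**
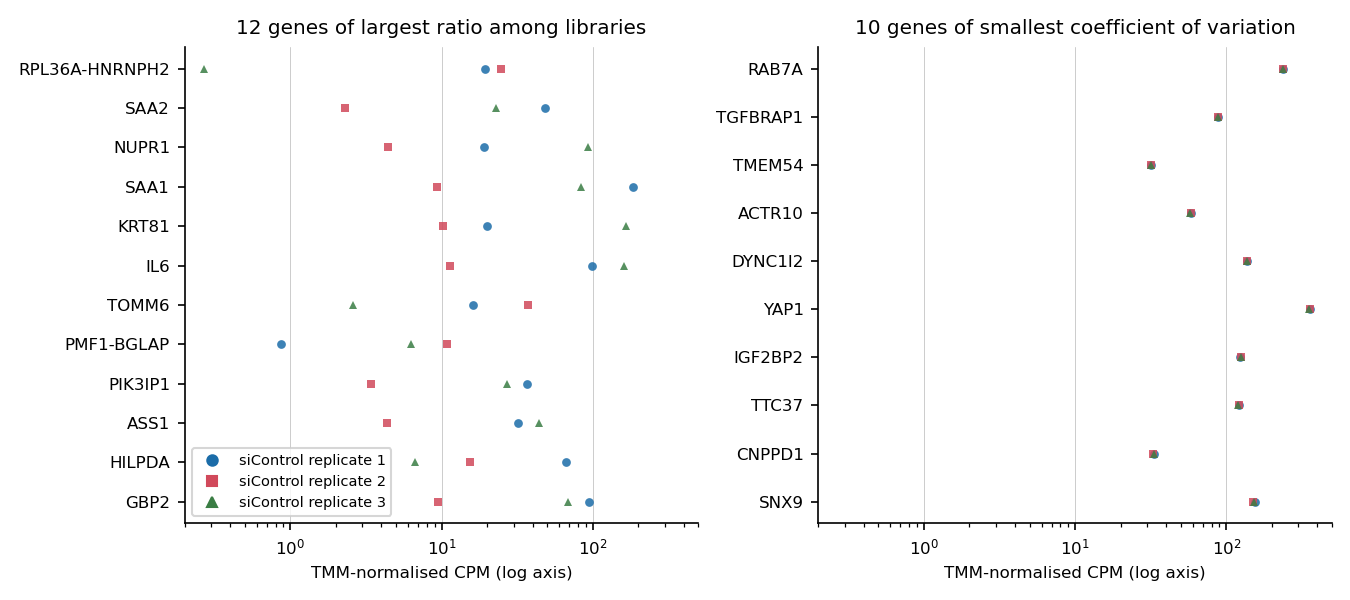
TMM-normalised CPM on log axes of the 12 genes of largest ratio among the siControl libraries (left) and of the 10 genes of smallest CV (right), a point for each library. SAA2, NUPR1, SAA1, KRT81, IL6, PIK3IP1, ASS1 and GBP2 are lowest in replicate 2 on the left, whereas the 3 points of each gene on the right cover each other, as for RAB7A with a CV of 0.300%.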

How the data were processed

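RNA from 3 siControl TPC1 samples was measured by Illumina RNA-seq. The authors deposited raw counts per gene, with no normalization, and FPKM, which their methods credit to ballgown with StringTie. Tools named in the submitters' processing notes are StringTie 2.1.6, DESeq2 and edgeR. For the aligner, genome build, annotation release, counting mode and RNA selection, nothing is given in the sources used here. Of 31348 gene IDs, 30496 were found in GENCODE release 29, 30437 of them starting within 100000 bases, so coordinates are the table's, read as GRCh38.

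CPM was scaled with TMM (edgeR 4.0.16, R 4.3.3) over these 3 libraries. Total counts were 63824315 to 73439682. No library was a repeat of another: the chi-square of their counts was 118 to 335 per gene. No test was run, since there is 1 group and no contrast. The spread measures were tested on simulated data.

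The members and the 49 gene lists (964 genes) were chosen with earlier results of these data known. Named genes were the 30 highest by mean FPKM, list members, the 12 of largest ratio among libraries (mean FPKM of at least 5 and 10 counts in every library, and again with any count), the 10 of smallest CV (mean FPKM of at least 10) and the 10 highest that are not protein-coding. C3, AHNAK, FLNA, RPS28, RPS28P7, the genes overlapping those of largest ratio and the promoters printed were chosen after their values were seen. From lists given as name patterns, 10 genes that the pattern caught wrongly were removed. RefSeq promoters (GRCh38.p14) were matched by symbol. Alternatives were other thresholds, TPM, CPM, shares of counts, DESeq2 1.42.0 size factors, plain CPM, FPKM, other filters, another pseudocount and leaving out each replicate. Some genes on the lists are counted but not reported here by name.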

Additional observations from a re-analysis of the deposited data

How the results depend on the processing

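Of 53 alternatives over 10 results, 18 moved the value by more than the limit set for it, which was 1.5 times for counts of genes and the median CV and the spread between libraries or library pairs for shares and correlations. A mean of at least 5 or 10 FPKM left 6543 or 3769 genes expressed in place of 11625. Fewer than 10 summed counts gave 9175 silent genes in place of 2731, and leaving out a replicate gave 4206 to 4680, since fewer libraries were read. As shares of counts, the 10 most abundant genes held 9.36%, ribosomal proteins 5.00% and mitochondrial mRNAs 3.91%, because FPKM divides by length. The median CV was 40.5% with no filter on low values, and 10.98% to 17.8% when a replicate was left out, the lowest without replicate 2. Over 2-fold apart were 7006 genes with no filter beyond 1 count in every library and 463 at a mean of at least 10 FPKM, and 436 to 1375 when a replicate was left out, again the lowest without replicate 2. The lowest correlation was 0.969 with a pseudocount of 0.1 and 0.939 over genes at 1 FPKM or more, and 0.978 to 0.988 when a replicate was left out. Of the 100 most abundant matched genes, 41 held the pyrimidine run; 30 did with the run at the start base itself and at least 4 pyrimidines after the C, 47 with any listed start and 29 when ranked by CPM, alternatives chosen after seeing the data. No paired analysis was possible because a single group is described. Levels under about 0.05 CPM are under the level of 3 counts and are not resolved at this depth.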
